A study of Mus musculus with 2 samples.

Results

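Lungs of mice lacking the chemokine receptor gene Ccr2 (CCR2KO, genotype CCR2-/-) were compared with lungs of wild-type (WT) mice, all on the C57BL/6 strain and all given silica into the trachea at 400 mg/kg. Each cell suspension was stained with its own hashtag (a barcoded antibody that marks where a cell came from), and the comparison is limited to the cells with hashtags A0301, A0302 and A0303 in each genotype. Of 12306 cells so tagged, 11853 were kept, those with 200 or more genes detected and no more than 25% of reads from mitochondrial genes, of 32445 such cells under 17 tags in the whole series. The 3 CCR2KO tags held 2008, 1908 and 1900 of these cells, and the 3 WT tags held 2150, 1945 and 1942. Lungs were taken on days 3, 7 and 21, and no label gives the day of a tag. Nor does a label say whether a tag is 1 mouse, so each p-value is about these suspensions only. Each genotype was run on 1 cartridge (a microwell plate that captures single cells), so that genotype and cartridge cannot be told apart in any comparison below.

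CCR2 is the receptor through which Ly6C-high monocytes leave the bone marrow and enter injured tissue, along gradients of the chemokines CCL2, CCL7, CCL8 and CCL12. In the lung these monocytes become macrophages beside the resident alveolar macrophages, which take up inhaled silica. Silica crystals damage the phagosome and activate the NLRP3 inflammasome, and repeated injury leads to fibrosis, in which activated fibroblasts lay down collagen. Type I interferon induces antiviral genes, many of which hold GAAA repeats in their promoters.

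Genes of the type I interferon response were among those lower in CCR2KO, and 3 of their promoters are shown. All 3 hold a match to the sequence named below, and promoters of lower genes without a match, such as Irf7, are not shown. The windows run from 250 bases before to 50 bases after the RefSeq start (GRCm38.p6): chr4:156200769-156201068 on the minus strand for Isg15, chr19:34583279-34583578 on the plus strand for Ifit3, and chr12:26456403-26456702 on the minus strand for Rsad2. Capitals mark matches to GAAANNGAAA on either strand, and matches overlap each other in Isg15.
Isg15: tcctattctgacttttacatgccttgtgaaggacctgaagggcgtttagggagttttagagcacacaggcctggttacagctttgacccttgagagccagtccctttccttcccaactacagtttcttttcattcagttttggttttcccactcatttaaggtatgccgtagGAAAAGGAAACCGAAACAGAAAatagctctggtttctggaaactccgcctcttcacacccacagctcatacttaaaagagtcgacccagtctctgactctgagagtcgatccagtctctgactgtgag
Ifit3: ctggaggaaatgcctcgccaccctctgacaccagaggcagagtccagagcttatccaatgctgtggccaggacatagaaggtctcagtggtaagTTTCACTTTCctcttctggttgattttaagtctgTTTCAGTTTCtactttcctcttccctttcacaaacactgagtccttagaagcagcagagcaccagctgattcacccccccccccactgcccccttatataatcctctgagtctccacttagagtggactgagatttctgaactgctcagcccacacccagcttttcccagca
Rsad2: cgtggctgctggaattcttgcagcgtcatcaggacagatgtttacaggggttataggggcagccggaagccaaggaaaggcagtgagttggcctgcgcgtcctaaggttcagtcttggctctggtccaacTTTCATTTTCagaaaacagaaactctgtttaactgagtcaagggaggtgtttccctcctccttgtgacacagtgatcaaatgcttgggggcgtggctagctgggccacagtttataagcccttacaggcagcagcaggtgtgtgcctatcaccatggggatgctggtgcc
A match was present in 6 of the 13 interferon-list genes that have a promoter in the RefSeq table and in 5 of the 10 such genes that fell. Over all 32851 promoters of that length the share was 3.44%, and over the 14007 tested genes with a promoter it was 4.01%. The Isg15 window held 3 matches, that of Ifit3 held 2 and that of Rsad2 held 1. A match is a description of the letters and was not tested as a binding site.

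Reads per tag lay between 65087385 and 75473870 after the filter on cells. The median cell had 960 ± 60.3 detected genes in CCR2KO and 1144 ± 32.5 in WT (SD, n = 3 tags each). With cells thinned to 5000 reads, the mean per cell was 735 ± 23.1 detected genes in CCR2KO and 830 ± 17.6 in WT. Thinning kept the 1986, 1895 and 1878 deep enough cells of the CCR2KO tags and every cell of the WT tags. These means did not overlap between tags (two-sided exact permutation p = 0.1, the smallest that 3 against 3 tags allow). Ribosomal RNA precursor took 0.650% ± 0.0196 of reads in CCR2KO and 0.984% ± 0.0298 in WT. The mitochondrial share was 6.75% in CCR2KO and 6.67% in WT. A single WT tag, A0303, stood apart in haemoglobin reads, with Hbb-bs at 519 CPM (reads scaled to a common total per tag) in it and at most 5.15 CPM in the other 5 tags. The cell numbers in the column names were shared by 318 cells between the tables of the genotypes. Cells that Scrublet called as doublets, 37 to 49 per tag, stayed in the sums over whole lung and were left out of the clustering.

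Ccr2 itself (chr9:124101918-124109140, GRCm38.p6) was read first as a check of the genotype labels. The CCR2KO tags had 1.42, 4.24 and 2.23 CPM of Ccr2, against 57.3, 52.7 and 75.0 CPM in the WT tags. The groups did not overlap, and the difference was −4.55 on the log2 scale (SE 0.38, edgeR adjusted p = 0.00156). Leaving out any 1 tag gave values from −5.08 to −4.24. Of the WT reads of Ccr2, 42.4% came from monocyte-like cells, 12.1% from interstitial macrophage-like cells and 11.4% from T cell-like cells. Within interstitial macrophage-like cells Ccr2 fell by 6.12 on the log2 scale (edgeR adjusted p = 0.0129). Within monocyte-like cells it averaged 25.1 CPM in CCR2KO and 504 CPM in WT, which did not pass the test (edgeR adjusted p = 0.104), and within T cell-like cells 20.8 CPM in CCR2KO and 160 CPM in WT. CPM here and below give a gene's reads relative to all reads of the tag, with totals adjusted by TMM for whole lung, so that they compare a gene between tags and not genes with each other. Those per class in this paragraph use plain totals.

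The cell make-up differed in 10 of 25 cell classes, and the 2 with the largest log2 differences below 0 were monocyte-like cells and scar-type macrophage-like cells. Classes were named by likeness to marker genes and counted per tag among the 5688 CCR2KO and 5902 WT cells that were clustered. For shares, edgeR takes its estimate of spread partly from the other classes, so its small p-values do not rest on the tags of a class alone. In each of the 10 classes the two-sided exact permutation test over tags gave p = 0.1, the smallest that 3 against 3 tags allow. Monocyte-like cells were 0.814%, 0.752% and 1.08% of the CCR2KO tags, against 6.19%, 6.80% and 7.98% of the WT tags. The lowest WT tag was above the highest CCR2KO tag, and the difference was −2.98 on the log2 scale (SE 0.24, edgeR adjusted p = 4.79e-21, 50 cells in CCR2KO and 411 in WT). That cluster had 6 classical monocyte markers, and 4 nonclassical ones among its 100 leading genes. Scar-type macrophage-like cells, named from markers such as Mmp12, Gpnmb and Spp1 that macrophages express at sites of fibrosis, were 1.22%, 1.99% and 1.24% in CCR2KO and 5.57%, 7.33% and 9.03% in WT. These shares did not overlap either (log2 −2.30, SE 0.22, edgeR adjusted p = 4.19e-17, 84 cells in CCR2KO and 428 in WT).

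Other macrophage classes were not called. Alveolar macrophage-like cells were 5.44% ± 0.875 in CCR2KO and 6.44% ± 1.33 in WT, and interstitial macrophage-like cells 2.37% ± 0.252 in CCR2KO and 2.85% ± 0.509 in WT (SD, n = 3 tags each). Neither passed the test, with log2 differences of −0.24 (SE 0.18) and −0.26 (SE 0.22). Conventional dendritic cell-like cells were 1.95% ± 0.173 in CCR2KO and 2.76% ± 0.590 in WT, without overlap and without a call (edgeR adjusted p = 0.0713). Natural killer cell-like cells were fewer, at 1.47% ± 0.275 in CCR2KO and 2.42% ± 0.222 in WT (log2 −0.71, edgeR adjusted p = 0.0146); without CCR2KO tag A0302 this call was lost, at log2 −0.58. Aerocyte-like cells, the capillary cells that line the gas exchange surface, were 3.04% in CCR2KO and 4.48% in WT (log2 −0.55, edgeR adjusted p = 0.0175). That call was lost without CCR2KO tag A0301 (log2 −0.53), CCR2KO tag A0302 (log2 −0.53) or WT tag A0303 (log2 −0.42), and with the stricter filter on cells (log2 −0.50).

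Alveolar type 2, activated and adventitial fibroblast-like cells and neutrophil-like cells made up more of the CCR2KO tags. Alveolar type 2 cell-like cells, which make surfactant, were 12.2%, 15.1% and 10.5% in CCR2KO, against 5.81%, 7.33% and 6.25% in WT. Activated fibroblast-like cells, named from markers such as Tnc and Postn, were 8.85%, 8.16% and 6.99% in CCR2KO, against 3.66%, 3.96% and 3.57% in WT. Both were higher in every CCR2KO tag than in every WT tag, by 0.97 (SE 0.18, edgeR adjusted p = 3.1e-06) and 1.10 (SE 0.19, edgeR adjusted p = 5.35e-07) on the log2 scale. Adventitial fibroblast-like cells, which surround vessels and airways, were 4.65% ± 0.550 in CCR2KO and 2.76% ± 0.120 in WT (log2 0.75, edgeR adjusted p = 0.00111). Neutrophil-like cells were 6.19% ± 0.347 in CCR2KO and 3.46% ± 0.719 in WT (log2 0.84, edgeR adjusted p = 1.33e-04). Within this class, cluster 6, with Il1f9, Ccl3 and Tnf among its leading genes, was 5.40% ± 0.462 in CCR2KO and 2.57% ± 0.461 in WT. The other neutrophil cluster, led by Retnlg, was 0.794% ± 0.157 in CCR2KO and 0.896% ± 0.291 in WT. Requiring 500 genes detected and no more than 15% of reads from mitochondrial genes lost the neutrophil call, at log2 0.20. In sums over whole lung, edgeR called 0 of 11 neutrophil markers, with a median log2 difference of −0.01. Of these markers 2 had an unadjusted p below 0.05, and DESeq2 called 1 higher and 1 lower.

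A pair of rare classes had few WT cells. Plasma cell-like cells numbered 21, 8 and 15 in the CCR2KO tags, against 2, 0 and 3 in the WT tags. Mesothelial cell-like cells, which cover the lung surface, numbered 14, 6 and 8 in CCR2KO, against 1, 0 and 0 in WT. Their log2 differences were 3.09 (SE 0.69, edgeR adjusted p = 8.89e-05) and 4.41 (SE 1.11, edgeR adjusted p = 4.87e-04). Ccr2 and mitochondrial genes were left out of every clustering. When all 43 genes called within any class were left out, 10 of 26 classes were called and 9 of them were the same classes. Plasma cell-like cells no longer formed a class in that clustering. Monocyte-like cells were then 0.846% in CCR2KO and 6.57% in WT, and scar-type macrophage-like cells 1.52% in CCR2KO and 7.25% in WT. Shares sum to a fixed total, so a loss in one class raises the share of others.

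**Figure D1:**
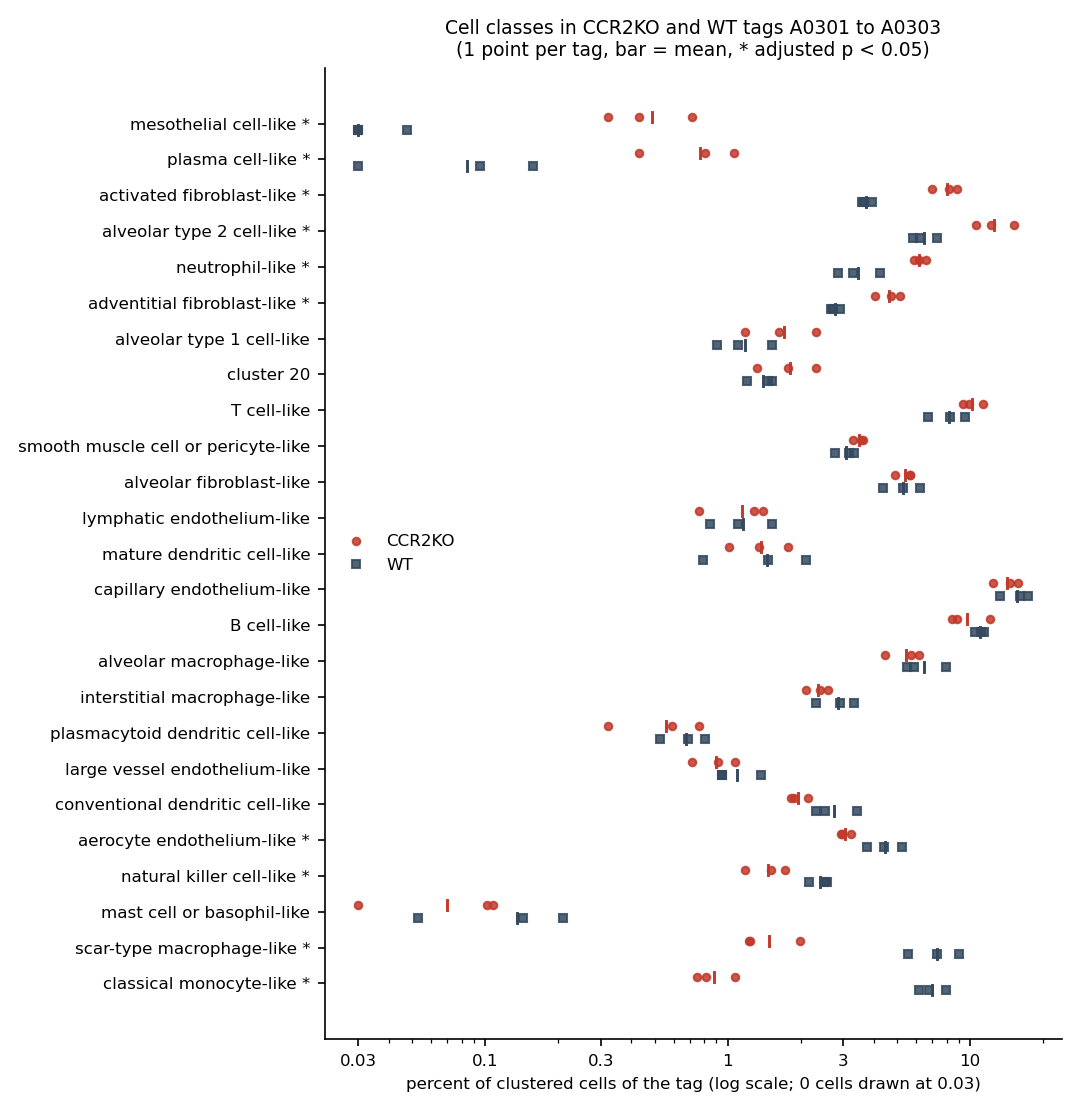
Share of clustered cells in each of the 25 classes, in percent of the cells of a tag on a log scale, with 1 point per tag, circles for CCR2KO and squares for WT, and short bars for means. Monocyte-like and scar-type macrophage-like cells lie between 0.752% and 1.99% in the CCR2KO tags and between 5.57% and 9.03% in the WT tags, with no overlap.

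Reads of all kept cells were summed per tag to compare gene levels in whole lung. In such sums, fewer cells of a type and less RNA per cell cannot be told apart. Of 19547 genes tested, 1170 differed (5.99%; edgeR quasi-likelihood test, Benjamini-Hochberg adjusted p below 0.05), 593 higher (3.03%) and 577 lower (2.95%) in CCR2KO. Leaving out any 1 of the 6 tags gave 519 to 749 calls. The 3 CCR2KO tags and the 3 WT tags did not overlap for 25.9% of genes tested. The median difference over all genes tested was 0.00 on the log2 scale.

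Monocyte genes were among those that fell most. Ms4a4c, a surface protein of Ly6C-high monocytes, had 9.26, 23.2 and 18.1 CPM in CCR2KO, against 95.0, 95.3 and 145 CPM in WT. Ly6c2, the Ly6C antigen gene, had 131, 121 and 111 CPM in CCR2KO, against 413, 329 and 629 CPM in WT. Neither gene overlapped between genotypes, and they fell by 2.73 (SE 0.33) and 1.92 (SE 0.21) on the log2 scale, with edgeR adjusted p = 0.00373 and 0.00285. Ifitm6, Clec4a1 and Lst1, all expressed by monocytes, fell by 2.46, 2.08 and 1.97 on the log2 scale, and F13a1, which encodes a subunit of coagulation factor XIII, by 1.5. In WT, monocyte-like cells gave 74.9% of the reads of Ifitm6 and 59.7% of those of Clec4a1, and within that class their log2 differences were −0.38 and 0.22, neither called, where the median over all genes tested was −0.34. Of the 9 classical monocyte markers 5 fell, and 2 rose, Fn1 and Hp, both of which fibroblasts also express. Scar-type macrophage markers did not fall as a group: of 10, Inhba fell and Ctsk rose, with a median of −0.17. Of 15 lipid-associated and scar-type macrophage genes, Lgals3 fell and Ctsk and Ctsl rose, also with a median of −0.17. Ccr1, a chemokine receptor gene next to Ccr2 on chromosome 9, fell by 0.96 on the log2 scale (edgeR adjusted p = 0.00599), and no other of the 10 neighbours tested was called. Without monocyte-like and macrophage-like cells the Ccr1 difference was −0.03 (edgeR adjusted p = 0.979).

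The type I interferon response fell across whole lung: 14 of 20 listed genes were lower, none was higher, and all 20 had a negative log2 difference. Their median was −0.80. Isg15, a ubiquitin-like protein that is conjugated to other proteins after interferon, had 52.3, 84.3 and 74.4 CPM in CCR2KO, against 158, 155 and 207 CPM in WT. Irf7, the transcription factor that amplifies type I interferon, had 66.6, 76.8 and 82.0 CPM in CCR2KO, against 155, 163 and 197 CPM in WT. Every CCR2KO tag was below every WT tag for both genes, which fell by 1.3 (SE 0.19, edgeR adjusted p = 0.00694) and 1.19 (SE 0.12, edgeR adjusted p = 0.00221) on the log2 scale. Rsad2, the antiviral enzyme viperin, had 24.2, 50.3 and 42.0 CPM in CCR2KO, against 94.1, 73.6 and 137 CPM in WT (log2 −1.39, edgeR adjusted p = 0.0326). Ifit3, which binds viral RNA complexes, had 42.4, 64.1 and 65.5 CPM in CCR2KO, against 118, 80.5 and 104 CPM in WT (log2 −0.82, edgeR adjusted p = 0.0484). Leaving out any 1 tag left 7 to 10 of the 20 genes called, with Isg15 and Irf7 called every time, Rsad2 in 2 of 6 such fits and Ifit3 in 0.

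Presentation genes fell by smaller amounts. B2m, the light chain of MHC class I, had 6584, 6889 and 6491 CPM in CCR2KO, against 8080, 8501 and 8712 CPM in WT (log2 −0.34, SE 0.04, edgeR adjusted p = 0.00225). In all, 3 of 9 class I genes fell (B2m, H2-D1 and Psmb9), as did 3 of 8 class II genes (H2-Aa, H2-Ab1 and H2-DMa), and none of either list rose. Without 1 tag, B2m was called in 6 of 6 fits, Psmb9 in 0 and the other 4 genes in 1 each. Of the 8 genes of the CXCR3 ligand and interferon gamma list edgeR called 1, Irf1, lower (log2 −0.42, edgeR adjusted p = 0.0256), in 0 of 6 fits without a tag, and DESeq2 called 3, all lower. Cxcl9 had 37.3 ± 8.83 CPM in CCR2KO and 60.5 ± 44.1 CPM in WT, and Cxcl10 89.2 ± 13.4 CPM in CCR2KO and 140 ± 48.8 CPM in WT (SD, n = 3 tags each), with neither called.

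Interleukin-1 family genes went both ways, with 3 lower and 2 higher of 12. Il1b, the cytokine that the inflammasome matures, had 233, 257 and 248 CPM in CCR2KO, against 402, 370 and 484 CPM in WT, without overlap (log2 −0.77, SE 0.10, edgeR adjusted p = 0.00488). The sensor Nlrp3 and the adaptor Pycard fell by 0.55 and 0.58 on the log2 scale, with Nlrp3 called in 1 and Pycard in 0 of 6 fits that left out a tag. The alarmin Il33 had 167, 230 and 234 CPM in CCR2KO, against 60.1, 108 and 117 CPM in WT (log2 1.15, edgeR adjusted p = 0.03). The interleukin-1 receptor gene Il1r1 also rose (log2 1.01, edgeR adjusted p = 0.00473). Alveolar type 2 cell-like cells gave 61.4% of Il33 reads in CCR2KO and 57.5% in WT. Neutrophil-like cells gave 47.3% of Il1b reads in CCR2KO and 19.1% in WT, while scar-type macrophage-like cells gave 6.7% in CCR2KO and 22.7% in WT. Without monocyte-like and macrophage-like cells the Il1b difference was −0.12 on the log2 scale (edgeR adjusted p = 0.777), and that of Nlrp3 was 0.05.

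Growth factors of fibrosis went both ways. Inhba, which encodes the activin A subunit, had 46.2, 63.5 and 37.7 CPM in CCR2KO, against 89.1, 104 and 134 CPM in WT (log2 −1.15, SE 0.21, edgeR adjusted p = 0.0182, called in 2 of 6 fits without a tag). Scar-type macrophage-like cells gave 76.3% of Inhba reads in WT, and without monocyte-like and macrophage-like cells the difference turned to 0.87, not called (edgeR adjusted p = 0.213). Tgfb1 and Osm, a cytokine of the interleukin-6 family, fell by 0.55 and 0.79 on the log2 scale. Igf1, insulin-like growth factor 1, had 275, 251 and 242 CPM in CCR2KO, against 153, 163 and 136 CPM in WT, and rose by 0.76 (SE 0.09, edgeR adjusted p = 0.00345). Activated fibroblast-like cells gave 40.4% of Igf1 reads in CCR2KO and 33.1% in WT. Fgf7, a growth factor for epithelium made by fibroblasts, rose by 0.69 on the log2 scale (edgeR adjusted p = 0.0302, called in 0 of 6 fits without a tag).

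Matrix genes rose as a group, with 13 of 18 higher and none lower, and a median of 0.69. Without monocyte-like and macrophage-like cells 6 of the 18 were called, with a median of 0.51, and so were 1 of 10 basement membrane genes and 0 of 8 contractile genes. Col1a2, a chain of type I collagen, had 1182, 1170 and 1130 CPM in CCR2KO, against 643, 766 and 728 CPM in WT. Tnc, the matrix protein tenascin C, had 70.6, 81.6 and 69.8 CPM in CCR2KO, against 38.5, 39.0 and 33.4 CPM in WT. Both were higher in every CCR2KO tag, by 0.70 (SE 0.07, edgeR adjusted p = 0.00182) and 1.00 (SE 0.12, edgeR adjusted p = 0.00326) on the log2 scale. Col1a1 and Col3a1 rose by 0.67 and 0.82, and 5 of 10 basement membrane genes rose, among them the laminin gene Lama2 (log2 1.25, called in 2 of 6 fits without a tag) and nidogen gene Nid1 (log2 0.70). Of 11 metalloproteinase and inhibitor genes 4 rose and none fell: the gelatinase Mmp2 (log2 0.94), the stromelysin Mmp3 (log2 1.02) and the inhibitors Timp2 (log2 0.66) and Timp3 (log2 0.42). The smooth muscle actins Acta2 and Actg2 rose by 0.90 and 0.86, each called in 2 of 6 fits without a tag, while edgeR called none of the other 6 contractile genes; of all 8, DESeq2 called 5, all higher.

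Surfactant genes rose in 10 of 11 cases, with none lower and a median of 0.91. Without monocyte-like and macrophage-like cells 5 of the 11 were called, with a median of 0.72. Sftpc, surfactant protein C, had 21051, 26447 and 20550 CPM in CCR2KO, against 10880, 13557 and 12358 CPM in WT. Sftpa1, surfactant protein A, had 5392, 6079 and 4381 CPM in CCR2KO, against 2442, 3166 and 2808 CPM in WT. No CCR2KO tag reached down to WT, and the genes rose by 0.89 (SE 0.11, edgeR adjusted p = 0.00371) and 0.91 (SE 0.12, edgeR adjusted p = 0.00574) on the log2 scale. The phosphate transporter Slc34a2 and the desaturase Scd1 rose by 1.26 and 1.3. Chia1, an acidic chitinase of alveolar type 2 cells, rose by 1.92 (edgeR adjusted p = 0.0105); without 1 tag it kept its call in 5 of 6 fits.

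Club cell genes rose by more than the matrix or surfactant genes did at the median. Club cells are secretory cells of the small airways, and 7 of their 8 markers rose, with a median of 1.93. Scgb1a1, the club cell secretory protein, had 10177, 18734 and 18503 CPM in CCR2KO, against 1676, 1369 and 2914 CPM in WT. Scgb3a2, another secretoglobin, had 317, 486 and 457 CPM in CCR2KO, against 32.1, 41.7 and 82.5 CPM in WT. The genotypes stood apart in both, by 2.99 (SE 0.32, edgeR adjusted p = 0.00268) and 3.01 (SE 0.34, edgeR adjusted p = 0.00325) on the log2 scale. Tff2, a mucosal trefoil peptide, had 32.3, 13.5 and 18.9 CPM in CCR2KO, against 1.39, 0.553 and 0.217 CPM in WT (log2 4.89; 5.79 without WT tag A0301). Retnla, a secreted protein induced by interleukin-4 and interleukin-13, had 356, 487 and 781 CPM in CCR2KO, against 49.6, 90.0 and 134 CPM in WT (log2 2.57, edgeR adjusted p = 0.00891). Scgb3a1 rose by 2.07, and by 2.84 without WT tag A0303, and was called in 1 of 6 fits without a tag. Of 8 ciliated cell markers 2 fell, Ccdc153 and Tppp3 (log2 −0.92 and −0.44), and none rose.

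Of 9 immunoglobulin genes 3 rose and none fell, with wide spread between tags and a median of 2.66. Without monocyte-like and macrophage-like cells 1 of the 9 was called, higher. Jchain, which joins IgA and IgM, had 1554, 418 and 1340 CPM in CCR2KO, against 72.4, 5.80 and 63.6 CPM in WT (log2 4.55, called in 2 of 6 fits without a tag). Igkc, the kappa light chain, had 5663, 1571 and 3325 CPM in CCR2KO, against 501, 289 and 775 CPM in WT (log2 2.75, called in 4 of 6). Iglc1, a lambda chain, had 30.8, 249 and 2055 CPM in CCR2KO, against 17.94, 17.98 and 16.46 CPM in WT. Tag A0303 of CCR2KO was far above the others, and the Iglc1 difference was log2 5.48 (edgeR adjusted p = 0.0456) with it and 3.01 without it (edgeR adjusted p = 0.068). Plasma cell-like cells gave 89.4% of Iglc1 reads in CCR2KO. In WT, B cell-like cells gave 91.1%. Tnfrsf17, the plasma cell survival receptor BCMA, had 168, 109 and 201 reads in CCR2KO and 0 in every WT tag, which is at least 54.4-fold higher against a floor of 3 reads per WT tag.

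Of 11 acute phase and interleukin-6 family genes 4 rose and 1, Osm, fell. Saa3, serum amyloid A3, had 3287, 3113 and 2639 CPM in CCR2KO, against 1386, 1595 and 1392 CPM in WT (log2 1.05, SE 0.09, edgeR adjusted p = 0.00151). C3, the central complement protein, had 961, 936 and 959 CPM in CCR2KO, against 497, 532 and 477 CPM in WT (log2 0.92, SE 0.05, edgeR adjusted p = 2.82e-04). All CCR2KO tags exceeded all WT tags in both. Haptoglobin (Hp) and Lif rose by 1.25 and 0.90, and the complement gene C4b rose by 0.94. Activated fibroblast-like cells gave 58.2% of Saa3 reads in CCR2KO and 50.3% in WT. Il6 had 204 ± 20.3 CPM in CCR2KO and 203 ± 59.0 CPM in WT and was not called.

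Chemokine genes gave a mixed result. Among 7 genes of neutrophil attraction, the epithelial Cxcl5 had 91.8, 133 and 112 CPM in CCR2KO, against 37.0, 50.2 and 42.8 CPM in WT (log2 1.37, SE 0.16, edgeR adjusted p = 0.00373). Cxcl15 and Cxcl1 rose by 1.09 and 0.58, and Cxcl2 fell by 0.35, called in 1 of 6 fits without a tag. None of the 4 CCR2 ligand genes was called in whole lung by edgeR, had an unadjusted p below 0.05 or was called by DESeq2. Ccl2 had 282.8 ± 40.05 CPM in CCR2KO and 300.6 ± 62.8 CPM in WT (log2 −0.09, SE 0.15), and Ccl7 154 ± 40.3 CPM in CCR2KO and 131 ± 22.5 CPM in WT (log2 0.24, SE 0.19). Ccl8 had 35.3 ± 14.1 CPM in CCR2KO and 34.8 ± 25.1 CPM in WT, and Ccl12 45.8 ± 17.5 CPM in CCR2KO and 31.9 ± 6.79 CPM in WT. Of the 5 genes of the Ccl3 to Ccl9 list, edgeR called 0, with 1 at an unadjusted p below 0.05 and 1 called by DESeq2. EdgeR also called 0 of 9 scavenger receptor genes (4 at an unadjusted p below 0.05, 1 called by DESeq2) and 0 of 10 cytotoxic genes (5 and 2).

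**Figure D2:**
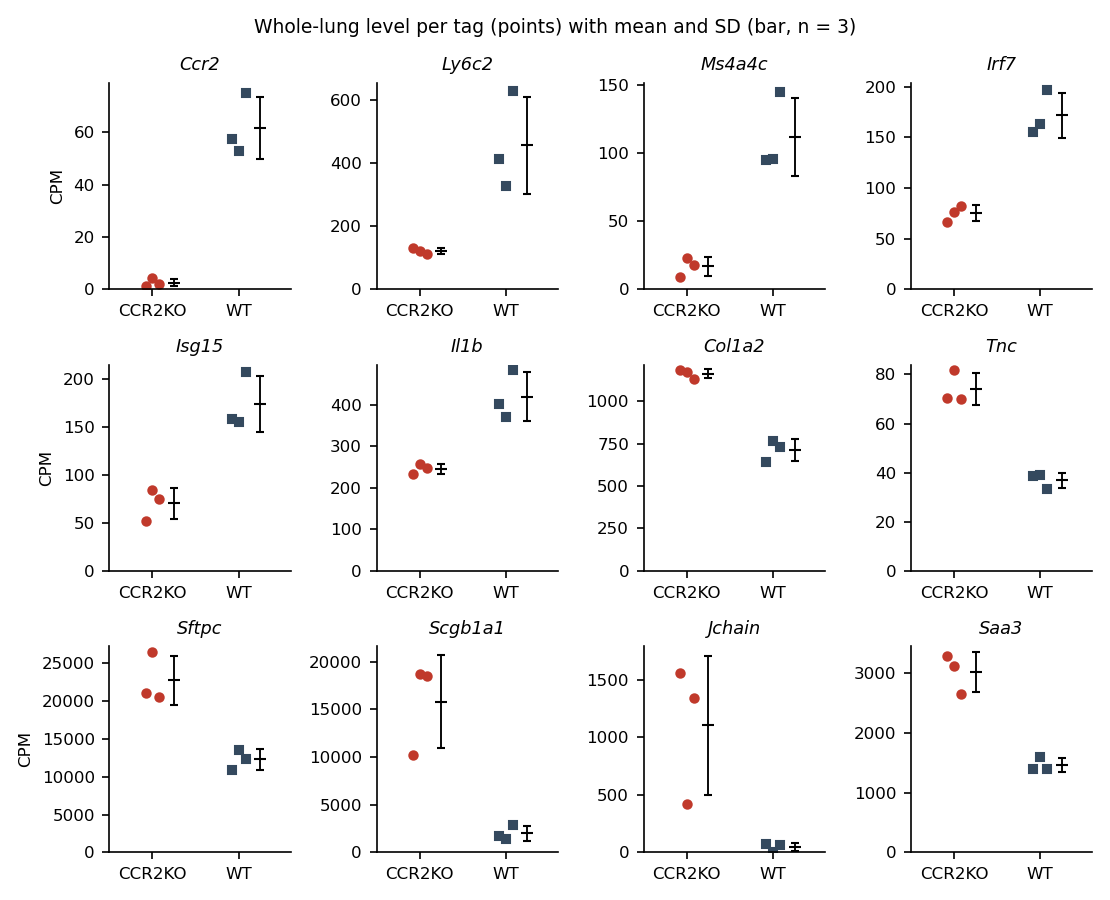
Whole-lung level of 12 genes in CPM, each panel from 0, with 1 circle per CCR2KO tag, 1 square per WT tag, and the mean with SD (n = 3) beside the points. The tags of the genotypes do not overlap in any panel, with Ccr2 at most 4.24 CPM in CCR2KO and at least 52.7 CPM in WT.

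**Figure D3:**
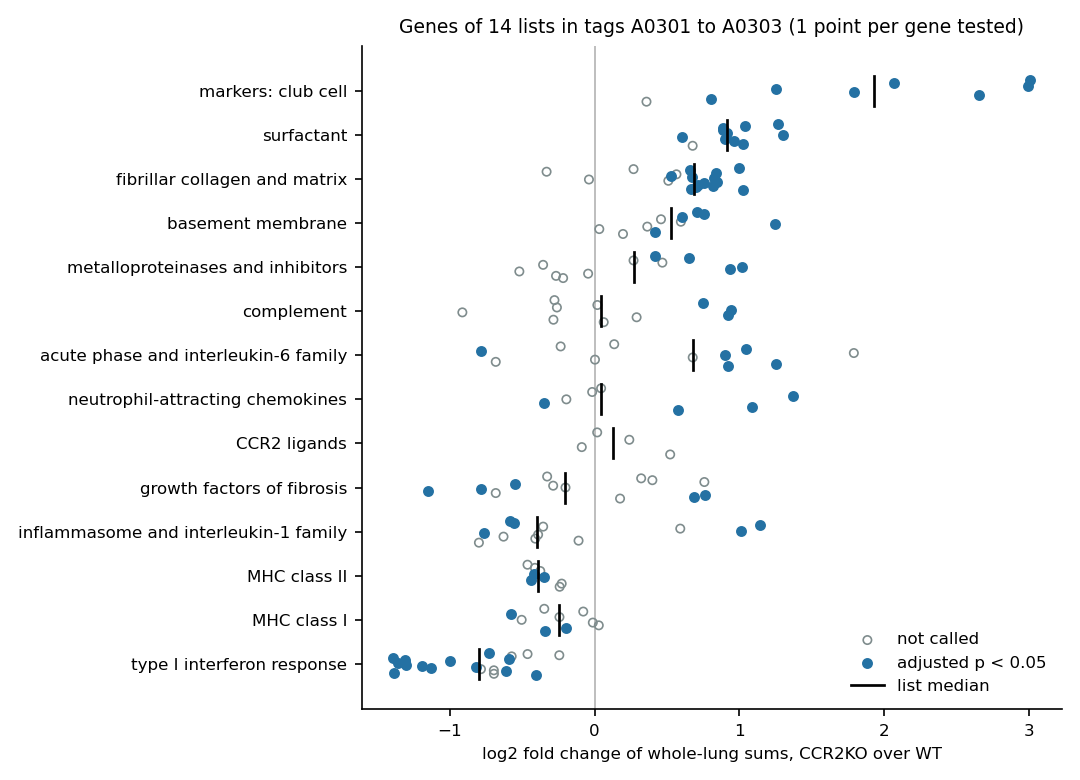
The log2 fold change, CCR2KO over WT, of every tested gene in 14 lists, filled where the edgeR adjusted p was below 0.05, with a bar at each list's median. Of the 14 lists drawn, which leave out immunoglobulin genes (median 2.66) and classical monocyte markers (median −1.17), club cell markers have the highest median (1.93) and genes of the type I interferon response the lowest (−0.80).

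Levels within like cells were compared in 21 classes with at least 10 cells in each of the 6 tags. For each gene of a list, its whole-lung difference was set beside that within the class that gave most of its reads. The median over 18 matrix genes was 0.69 in whole lung and 0.11 within class, with 16 of 18 closer to 0 within class. For the 11 surfactant genes it was 0.91 in whole lung and 0.17 within class, closer to 0 for 11 of 11. Sftpc in alveolar type 2 cell-like cells, its source for 93.0% of reads in both genotypes, differed by 0.03 on the log2 scale. Col1a1 in activated fibroblast-like cells differed by 0.12. Interferon genes had medians of −0.80 in whole lung and −0.66 within class, with 13 of 20 closer to 0 within class. Club cell markers had medians of 1.93 in whole lung and 1.99 within class, with 6 of 8 closer to 0 within class. For Scgb1a1 and Scgb3a2 that class was cluster 20, which mixed ciliated and club cell-like cells. Its club cell-like part was larger in CCR2KO than in WT, as given below, so these values do not come from like cells alone.

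**Figure D4:**
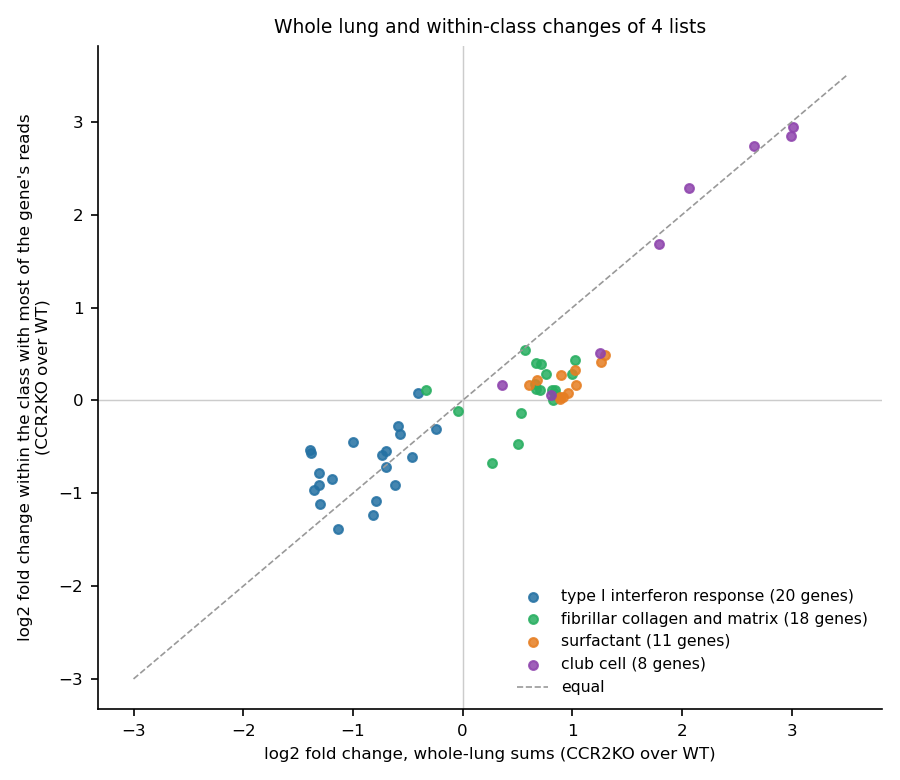
The log2 fold change, CCR2KO over WT, of genes in 4 lists, in whole lung on the horizontal axis and within the class with most of the gene's reads on the vertical axis, with a dashed line where they are equal. Matrix and surfactant genes lie near 0 on the vertical axis (medians 0.11 and 0.17), and interferon and club cell genes have medians of −0.66 and 1.99 there, although 13 of 20 and 6 of 8 of them are closer to 0 within class than in whole lung. For Scgb1a1 and Scgb3a2 the class was cluster 20, which mixed ciliated and club cell-like cells.

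The median of the type I interferon response was below 0 in 20 of the 21 classes. It ran from −1.57 in lymphatic endothelium-like cells to 0.06 in cluster 20, and was −1.51 in natural killer cell-like, −0.78 in capillary endothelium-like, −0.66 in alveolar type 2 cell-like and −0.20 in B cell-like cells. The medians over all genes tested were −0.34 in monocyte-like cells, −0.15 in large vessel endothelium-like cells and −0.14 in natural killer cell-like cells, and within 0.05 of 0 in the other 18. No single gene of the list passed the edgeR test in any class; of 375 tests over the classes 66 had an unadjusted p below 0.05 and a lower level, 1 had a higher level, and DESeq2 called 19, all lower. In whole lung without monocyte-like and macrophage-like cells, 5 of the 20 genes were called, all lower, with a median of −0.74. Isg15 then fell by 1.10 on the log2 scale (edgeR adjusted p = 0.025) and Irf7 by 0.98 (edgeR adjusted p = 0.0116), while Rsad2 was at −0.75 and not called (edgeR adjusted p = 0.375). The share of ribosomal RNA reads was also lower in every CCR2KO tag in 20 of the 21 classes, at 0.466 to 0.797 of the WT share. Its part in the interferon difference was not tested.

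Within single classes 59 calls were made, 28 higher and 31 lower in CCR2KO, on 43 distinct genes in 10 classes. Leaving out any 1 tag gave 16 to 41 calls. Of the 31 lower calls, 21 were ribosomal RNA or ribosomal protein genes, in 6 classes. In T cell-like and neutrophil-like cells these made up all 6 (0.0572%) and all 3 calls (0.0498%). In the other 11 classes edgeR called 0 genes, with 166 to 1258 genes at an unadjusted p below 0.05 and 20 to 1169 called by DESeq2. On simulated data edgeR recovered 27% of 2-fold changes in alveolar macrophage-like cells and 0% in monocyte-like cells, so an absent call does not show that levels were alike.

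Alveolar macrophage-like cells had 13 called genes (0.112% of 11602 tested), 8 higher (0.069%) and 5 lower (0.0431%). Ccl2, the main CCR2 ligand, had 124, 140 and 133 CPM in CCR2KO, against 19.2, 27.4 and 17.4 CPM in WT (log2 2.63, SE 0.26, edgeR adjusted p = 0.0039), and kept its call in 5 of 6 fits without a tag. Mmp12, the macrophage elastase, had 477, 258 and 499 CPM in CCR2KO, against 98.5, 129 and 117 CPM in WT (log2 1.84, edgeR adjusted p = 0.0187, called in 1 of 6). These tags did not overlap. Lcn2, an iron-binding protein, and Pla2g7, an acetylhydrolase of platelet-activating factor, rose by 2.70 and 2.94, each called in 1 of 6 fits without a tag, and the cell cycle inhibitor Cdkn1a fell by 0.62, called in 0 of 6. The other 4 higher genes were Sftpc, Sftpa1, Sftpd and Slc34a2, genes of alveolar type 2 cells. Without a tag, Sftpc was called in 6 of 6 fits and Sftpa1, Sftpd and Slc34a2 in 1 of 6 each. Sftpc had 1769, 1190 and 908 CPM in CCR2KO, against 142, 178 and 119 CPM in WT (log2 3.14, edgeR adjusted p = 0.00113). Markers of alveolar type 2 cells summed to 1270 to 2591 CPM in CCR2KO and 243.2 to 307.4 CPM in WT in this class, 9 of 10 higher and none at 0, and their part in the result was not tested.

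Interstitial macrophage-like cells had 7 called genes (0.07%), 5 higher (0.05%) and 2 lower (0.02%). Ccl2 had 1557, 2270 and 2124 CPM in CCR2KO, against 724, 809 and 763 CPM in WT (log2 1.37, SE 0.17, edgeR adjusted p = 0.0146, called in 1 of 6 fits without a tag). Ctsd, the lysosomal protease cathepsin D, rose by 1.41 (edgeR adjusted p = 0.0161, called in 2 of 6 fits without a tag). No CCR2KO tag overlapped WT in either gene. Igha, Igkc and Jchain, genes of plasma cells, rose by 12.03, 5.71 and 7.02, and were called in every fit without a tag; Igha had only 6, 4 and 3 reads in the WT tags. Plasma cell markers summed to 2730 to 11490 CPM in CCR2KO and 187 to 220 CPM in WT in this class, 6 of 8 higher and Tnfrsf17 at 0 in WT, and their part in the result was not tested. This class gave 35.6% of Ccl2 reads in CCR2KO and 12.1% in WT, while scar-type macrophage-like cells gave 10.5% in CCR2KO and 36.0% in WT.

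In adventitial fibroblast-like cells 9 genes were called (0.0801%), 2 higher (0.0178%) and 7 lower (0.0623%). Hp had 1325, 1290 and 719 CPM in CCR2KO, against 234, 129 and 176 CPM in WT (log2 2.63, edgeR adjusted p = 0.00985, called in 2 of 6 fits without a tag). Saa3 had 9262, 9073 and 7215 CPM in CCR2KO, against 4040, 5066 and 4998 CPM in WT (log2 0.86, edgeR adjusted p = 0.0451, called in 0 of 6). Tags did not overlap in either gene. Pwwp2a, a chromatin protein, fell by 3.49. Club cell markers, of which Hp is one, summed to 1048 to 1851 CPM in CCR2KO and 390 to 618 CPM in WT in this class, 7 of 8 higher with none at 0, and their part was not tested. In activated fibroblast-like cells 3 genes were called (0.0252%), the macrophage genes Ctss, Lyz1 and Lyz2, lower by 3.23, 2.43 and 2.12. Alveolar macrophage markers summed to 37.1 to 65.8 CPM in CCR2KO and 143 to 290 CPM in WT there, 10 of 12 lower with none at 0. Sums of the other 3 macrophage and monocyte lists in this class were not lower in that way: classical monocyte markers summed to 7005 to 8051 CPM in CCR2KO and 5119 to 7013 CPM in WT, and scar-type macrophage markers to 2428 to 2605 CPM in CCR2KO and 2153 to 2880 CPM in WT. Interstitial macrophage markers summed to 1478 to 1804 CPM in CCR2KO and 1434 to 1526 CPM in WT. Counted by member, however, 10 of 12 interstitial macrophage, 6 of 9 classical monocyte and 6 of 9 scar-type macrophage markers were lower in CCR2KO. The part of such markers in the result was not tested. No collagen gene was called within a fibroblast class.

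Fibin, an aerocyte marker, was the only call in aerocyte-like cells (0.011%), with 159, 75.5 and 91.2 CPM in CCR2KO, against 807, 625 and 976 CPM in WT (log2 −2.88, edgeR adjusted p = 0.0176, called in 1 of 6 fits without a tag). Mature dendritic cell-like cells had 3 lower calls (0.0499%), Col3a1, Sparc and Lyz1, genes of fibroblasts and macrophages, called in 0, 1 and 0 of 6 fits without a tag. In that class activated fibroblast markers summed to 51.7 to 238 CPM in CCR2KO and 357 to 608 CPM in WT, 6 of 9 lower and Grem1 at 0 in all tags. Alveolar macrophage markers summed to 32.5 to 146 CPM in CCR2KO and 61.2 to 466 CPM in WT, which overlap, 9 of 12 lower and Siglecf at 0 in all tags. The part of these markers was not tested. Alveolar fibroblast-like cells had 1 call (0.0089%), the ribosomal RNA gene Rn28s1.

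Cluster 20, with 6 ciliated and 4 club cell markers among its 100 leading genes, had 13 higher genes and none lower (0.139%). Club cell genes helped define this cluster, and their levels in it are a description. Scgb1a1 and Scgb3a2 were higher by 2.85 and 2.95 on the log2 scale, and Bpifb1, an airway host defence protein, by 4.27. Gp2 and Clca1, a mucin-processing protein of goblet cells, were at 0 reads in all WT tags and are at least 35.1-fold and 72.8-fold higher in CCR2KO against a floor of 3 reads per WT tag. The cluster was 1.80% ± 0.495 of CCR2KO cells and 1.4% ± 0.173 of WT cells and was not called. When the called genes were left out of the clustering, 31.4% ± 1.66 of its cells grouped as club cell-like in CCR2KO and 18.4% ± 2.97 in WT (32 and 15 cells), and 54.5% ± 3.36 as ciliated cell-like in CCR2KO and 75.4% ± 5.17 in WT (56 and 63 cells). Among all club cell-like cells so grouped, 35 in CCR2KO and 20 in WT, Scgb1a1 had 492500, 505200 and 507400 CPM in CCR2KO, against 11290, 21560 and 215400 CPM in WT. The genotypes did not overlap, but few cells stand behind each WT value. The ciliated cell gene Foxj1 had 117.8, 0 and 2.174 CPM in these CCR2KO cells, against 150.2, 195.6 and 2688 CPM in WT. Ccdc153, another ciliated cell gene, went the other way, at 1.041 to 42.13 CPM in CCR2KO and 0 in WT. In WT tags A0301 and A0302, Scgb1a1 was lower than in ciliated cell-like cells so grouped (85470 and 63570 CPM). Whether the Scgb1a1 values come from like cells was not tested.

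The first 3 tags were then compared with the later tags of the same tables, A0304 to A0306 and A0307 onward. CPM here come from 1 fit over all 17 tags, whose scaling shifts a value slightly from that given above. The CCR2KO minus WT difference in A0301 to A0303 was set against the mean of that difference in the later 2 blocks. Of 22389 genes tested 3 were called (0.0134%; edgeR), and 1671 had an unadjusted p below 0.05. Leaving out a tag of the first block gave 1 to 6 calls. For Igf1 the log2 difference was 0.78 in the first block and −0.06 in the later ones, a difference of 0.83 (SE 0.10, edgeR adjusted p = 0.00517). For Fn1, the matrix protein fibronectin, it was 0.68 in the first block and 0.01 later, a difference of 0.67 (SE 0.09, edgeR adjusted p = 0.0236). For B2m it was −0.33 in the first block and −0.72 later, a difference of 0.39 (SE 0.05, edgeR adjusted p = 0.0236). WT tags of the first block had 136 to 162 CPM of Igf1, below all later WT tags, which had 166 to 325 CPM.

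**Figure D5:**
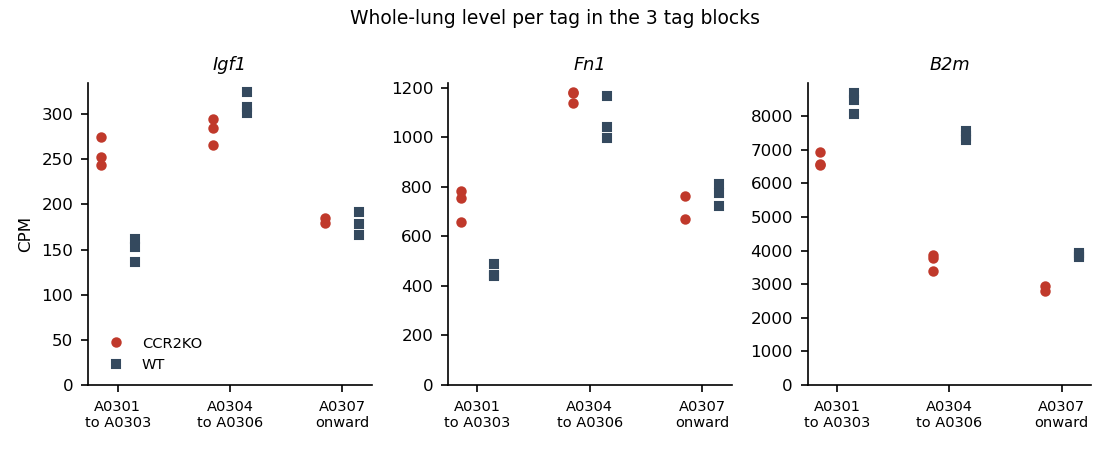
Whole-lung level of Igf1, Fn1 and B2m in CPM, scaled over all 17 tags, in each tag of the 3 tag blocks, with circles for CCR2KO left of squares for WT. In A0301 to A0303 Igf1 lies between 243 and 275 CPM in CCR2KO and between 136 and 162 CPM in WT, and in A0304 to A0306 the genotypes are close, at means of 282 CPM in CCR2KO and 312 CPM in WT.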

How the data were processed

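Per the labels' protocols, lungs were digested with Liberase, cells were enriched on a Percoll gradient, each suspension was stained with its own hashtag, and tagged suspensions were pooled and run on the BD Rhapsody system, 1 library per genotype. The authors deposited 1 table of whole-number counts per genotype, gene by cell. The submitters' processing notes name cutadapt 2.10, Bowtie2 2.4.2, R 3.6.3 and GRCm38; how the tools were used, and whether reads or molecules were counted, is not given in the sources used here. The median nonzero entry was 10, so the counts are called reads here, and their intervals and floors cover counting error only.

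Genes found in either genotype were used, of which 22975 were found in both. Without a filter on low counts, 24271 genes were tested in whole lung. A gene missing from the counts of a genotype was taken as 0 there. Whether genes at 0 reads in all WT tags, such as Tnfrsf17, Gp2 and Clca1, were missing in that way is not given here. Counts of cells with 200 or more detected genes and 25% or less mitochondrial reads were summed per tag and tested with edgeR 4.0.16 (filterByExpr, TMM, quasi-likelihood test, Benjamini-Hochberg 0.05), 3 CCR2KO against 3 WT tags. Classes came from Scanpy 1.11.5 and leidenalg 0.10.2 on all tagged cells (2000 variable genes, 40 components, resolution 1.5), named from marker lists and tested by sums within class or, for shares, by cell counts. On simulated data for the whole-lung comparison (19547 genes), edgeR found 94% of the 2-fold and 100% of the 4-fold changes put in, and made 8 false calls. DESeq2 1.42.0 and other filters, normalizations, cell filters and left-out tags were alternatives.

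The members and gene lists were chosen with earlier results of these data known. Named genes had an adjusted p below 0.05, at least 20 CPM in the higher genotype and tags without overlap: the 12 with the largest change in each direction (5 within a class), with Ccr2 and called list members. Other list members are given by counts and medians, except a few uncalled chemokine and cytokine genes that are named with their values. Tags with the same number did not pair the genotypes (correlations of deviations −0.03, 0.12 and −0.11). Promoter sequences are from RefSeq (GRCm38.p6).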

Additional observations from a re-analysis of the deposited data

Results flagged for a closer look

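The CCR2KO minus WT difference in tags A0301 to A0303 stood apart from that in the later tags for 3 genes, by a test of the difference itself (edgeR over all tags). It was larger by 0.83 on the log2 scale for Igf1 and by 0.67 for Fn1, and less negative by 0.39 for B2m. The labels do not give the day of a tag, and a cause was not tested.

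For 3 genes called in A0301 to A0303, the tags from A0307 onward lay the other way. Cxcl5 averaged 113 CPM in CCR2KO and 43.2 CPM in WT in the first tags, and 35.1 CPM in CCR2KO and 50.3 CPM in WT in the last ones, a log2 difference of −0.52 there. Mmp3 averaged 133 CPM in CCR2KO and 65.4 CPM in WT in the first tags, and 90.4 CPM in CCR2KO and 139 CPM in WT in the last ones, at −0.61. Ccdc153 averaged 16.2 CPM in CCR2KO and 30.3 CPM in WT in the first tags, and 33.6 CPM in CCR2KO and 21.2 CPM in WT in the last ones, at 0.66. These genes were picked for this direction out of the named genes, 160 in all. The last tags were fewer in CCR2KO than in WT, since the series held 8 CCR2KO and 9 WT tags. With so few tags, some genes among many can lie the other way by chance alone. The opposite direction itself was not tested. The difference between the first and all later tags did not pass for Cxcl5 (edgeR adjusted p = 0.47), Mmp3 (edgeR adjusted p = 0.221) or Ccdc153 (edgeR adjusted p = 0.315).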

How the results depend on the processing

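The count of 1170 whole-lung calls was 602 with genes of at least 100 CPM only (1585 tested, 410 shared), 2372 with DESeq2 (1134 shared), and 385 without monocyte-like and macrophage-like cells (328 shared; 579 CCR2KO and 1386 WT cells removed, with Scrublet calls also left out). Leaving out any 1 of the 6 tags gave 519 to 749 calls. It was 827 with the replicate number as a block, although the numbers did not pair the tags; with that replicate block 67 calls were made within classes, 10 class shares were called and Ccr2 was at −4.66. The 59 calls within classes were 569 with no filter on low counts (59 shared), 2636 with DESeq2 (59 shared) and 16 to 41 without a tag. The 10 called class shares were 8 to 12 without a tag, the 3 calls between tag blocks 1 to 6, and Ccr2 −5.08 to −4.24. The ratio of detected genes was 0.875 to 0.901 without a tag. Without monocyte-like and macrophage-like cells the direction turned for Nlrp3 (0.047), Inhba (0.87), Prdx1 (0.16) and Slc7a11 (0.10); the cause was not tested. Of the 24 genes with the largest change, 19 were called whichever tag was left out, and of all 160 named genes 83 were. Depth limits calls within classes of few cells.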

Other observations

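Genes of stress and metabolism moved little or both ways in whole lung. Of 16 immediate early and dissociation genes 5 rose and 1 fell, with a median log2 difference of 0.12. Hspa1b, an inducible heat shock protein 70 gene, had 48.0, 58.7 and 41.4 CPM in CCR2KO, against 17.96, 16.4 and 19.6 CPM in WT, without overlap (log2 1.46, SE 0.15, edgeR adjusted p = 0.00258). Fos, Egr1 and Dusp1 rose by 0.26, 0.28 and 0.32. Of 10 genes of endoplasmic reticulum stress 2 rose, Herpud1 (log2 0.85) and Xbp1 (log2 0.41), which is also a plasma cell marker.

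Of 14 genes of iron, metal and oxidative stress, the metallothioneins Mt1 and Mt2 rose by 0.32 and 0.51, and Prdx1, Srxn1 and Slc7a11 fell by 0.28, 0.71 and 0.67 on the log2 scale. Of 11 glycolysis and hypoxia genes Ldha rose by 0.28, and Eno1 and Gapdh fell by 0.44 and 0.29. EdgeR called 0 of 12 cell cycle genes in whole lung (6 at an unadjusted p below 0.05, 4 called higher by DESeq2) and 0 of 10 cholesterol genes (3 at an unadjusted p below 0.05, 1 called by DESeq2).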
